A study of Rattus norvegicus with 4 samples.

Results

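The genes examined here build the actin filaments of hippocampal cells and the spectrin skeleton under their membranes. The list held 46 genes, named by function, and every probe set that the platform annotation assigned to 1 gene alone, and to one of these, was taken. Of the 46 genes, 42 had such a probe set, and 41 had at least 1 that was bright enough to test. This gave 73 tested probe sets of 100, among 14791 tested probe sets of 31042 on the array. Actb, Cfl1, Dstn and Actr3 were represented only by probe sets assigned to several genes, which were not used, and Actb was followed through the array's own control probe sets.

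Hippocampal RNA came from male Wistar rats, 15 months old at the beginning of chronic unpredictable mild stress (CUMS) and 16 months old when dissected. The stressed rats went through 4 weeks of CUMS, a changing series of mild stressors, and the nonstressed controls, of the same age, were not exposed to it. There were 2 arrays of stressed rats and 2 arrays of nonstressed controls, and each array held total RNA pooled from 3 rats. The labels call the arrays biological replicates, but it was not stated if different rats went into the pools of a group, so each p measures only the spread between pools, which may be technical.

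Actin is present in cells as monomers and as filaments, and its filaments form the core of dendritic spines and growth cones. Profilins feed monomers to growing filament ends, cofilins sever filaments, the Arp2/3 complex starts branches, and capping proteins close the ends. Spectrin tetramers join short actin filaments into a lattice below the membrane, which ankyrins, protein 4.1 and adducins fasten to membrane proteins and to actin.

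Values are the deposited signal intensities on a linear scale, and fold changes are differences of log2 signals, stressed minus control, with their standard error (SE). A probe set was tested if its signal was at least 100 on at least 2 arrays. It is said to rise or fall where the adjusted p was under 0.05, from limma with Benjamini-Hochberg adjustment over all tested probe sets. With 2 arrays a group, the smallest two-sided p that an exact permutation test allows is 0.333. The median signals were 79.9 and 82.1 on the stressed arrays, against 80.5 and 79.3 on the control arrays, and 46.4% to 46.8% of probe sets reached 100. The log2 signals correlated across tested probe sets, which are not independent, with r = 0.993 within the stressed arrays, 0.994 within the control arrays and 0.972 to 0.974 between the groups.

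More of these probe sets fell than rose in stressed rats. The genes were chosen with earlier results of these data known, so their shares beside those of the array describe the list only. Of the 73 tested, 23 fell, or 31.5%, where 11.8% of all tested probe sets on the array fell, and 7 rose, or 9.59%, where 12% of all rose. The other 43 did not pass the test. Of the falls 1, that of Pdlim5, passed the signal filter through the control arrays alone. At an unadjusted p under 0.05, 31 of the 73 were lower, where 17.6% of all tested probe sets were, and 10 were higher, where 20.4% of all were. The median log2 fold change was -0.12 over the 73 probe sets, against 0.02 over all tested ones. With each gene counted once, at its brightest probe set, 11 of 41 genes fell, or 26.8% against 10.2% of all genes, and 6 rose, or 14.6% against 11.1%. The median over genes was -0.03, against 0.02 over all genes. The counts of genes changed with single arrays, to 5 falls and 2 rises when control replicate 2 was left out, to 7 and 2 for control replicate 1, and to 7 and 3 for stressed replicate 2. Without control replicate 2 the median over genes was 0.0009. Without the intensity trend in limma 5 genes fell and 2 rose. The shares over all genes in these fits are not given, so these counts show only how the member counts moved.

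Most of these differences were small. Past the study's thresholds, 2-fold or more at an unadjusted p under 0.05, there were 2 lower probe sets, of Epb41l3 and Pdlim5, where 1.38% of all tested probe sets were lower. By limma 0 were higher, where 0.216% of all were. The Pdlim5 probe set passed the signal filter through the control arrays alone, so that its stressed values had to be lower. The calls of probe sets depended on single arrays too. Without control replicate 2 there were 2 rises and 15 falls, without control replicate 1 there were 3 rises and without stressed replicate 2 there were 4. Of the 30 calls, 14 falls and 1 rise, that of the bright Sptbn1 probe set, were kept whichever array was left out. When an array is left out, the lone array of its group is assumed to vary like the other group. The shares over all tested probe sets in these fits are not given.

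**Figure D1:**
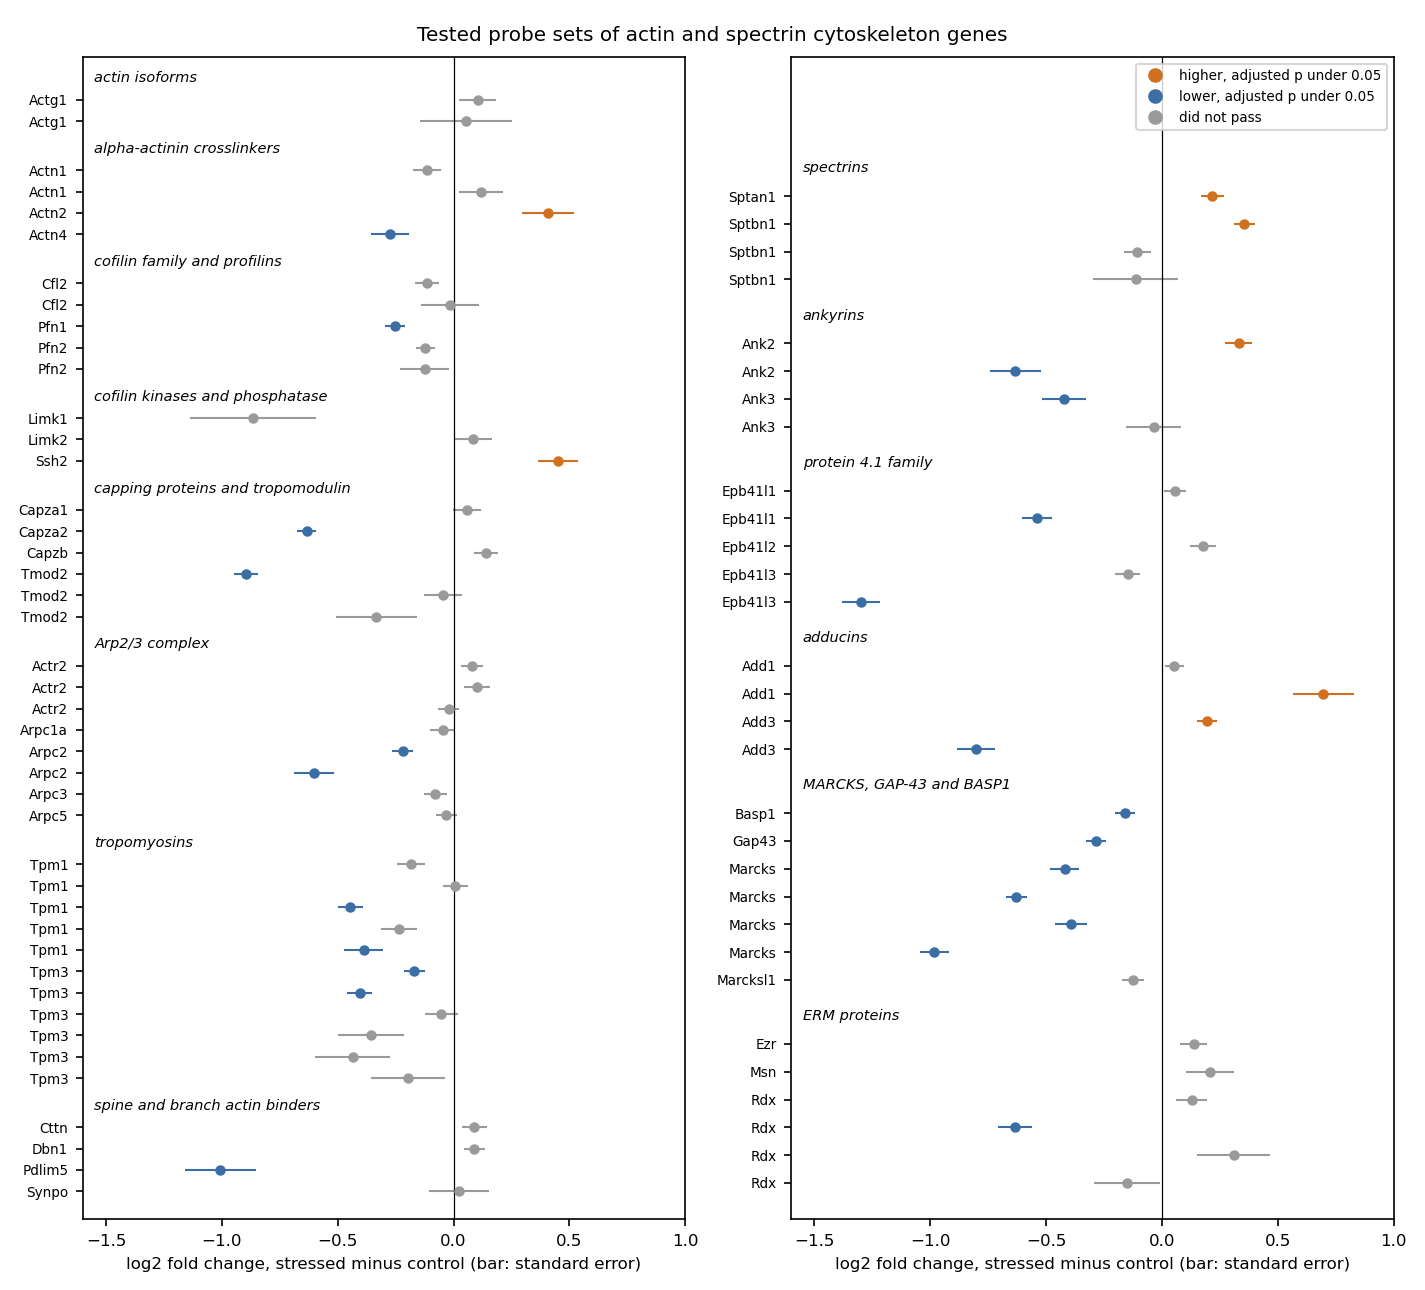
Log2 fold change, stressed minus control, of each of the 73 tested probe sets by role, with bars of 1 standard error from limma on 2 arrays a group. Falls (blue) are spread over most roles, and 5 of the 7 rises (orange) are among spectrins, ankyrins and adducins, while grey probe sets did not pass the adjusted test.

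The transcript of beta-actin, the main actin of nonmuscle cells, was read by 3 control probe sets along its length, which stand outside the tests. At the 5′ end its signal was 706 and 703.6 in stressed rats, against 1175.4 and 1336.2 in nonstressed controls. In the middle it was 1631.7 and 1575.6 in stressed rats, against 3121.4 and 3285.2 in controls. At the 3′ end it was 5520.4 and 5389.3 in stressed rats, against 7837.2 and 8285.8 in controls. All 3, which read 1 transcript, were lower on both stressed arrays, by log2 differences of -0.830, -0.998 and -0.563 in that order. Such a separation was common, with 37 of the 73 tested member probe sets lower and 19 higher without overlap. The share over all tested probe sets is not given. The ratio of 3′ to 5′ signal, which is higher where the RNA or the labelling is less complete at the 5′ end, was 7.82 and 7.66 in stressed rats, against 6.67 and 6.20 in controls. The ratio of 3′ to middle signal was 3.38 and 3.42 in stressed rats, against 2.51 and 2.52 in controls. For hexokinase, whose 5′ signals were under 50, the 3′ to 5′ ratio was 4.48 and 5.29 in stressed rats, against 2.55 and 2.50 in controls, so it was also higher on both stressed arrays. The hexokinase 3′ signal itself was higher, at 207.8 and 198.5 in stressed rats, against 119.2 and 117.9 in controls. Its ratio of 3′ to middle signal overlapped between the groups, with 9.756 and 2.989 in stressed rats, against 3.645 and 3.97 in controls. The 3′ to 5′ ratio for Gapdh was 2.12 and 2.16 in stressed rats, against 2.14 and 2.25 in controls. The Gapdh signals differed by log2 values of 0.05 to 0.09. The part of the higher beta-actin and hexokinase ratios in the falls given here was not tested.

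**Figure D2:**
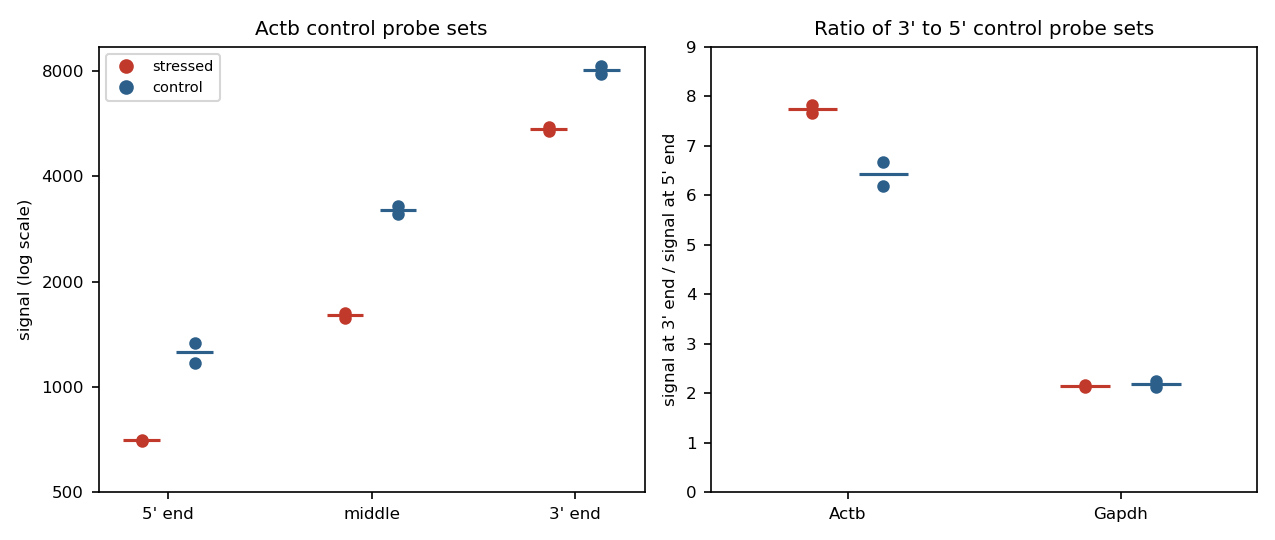
Left, signal of the beta-actin control probe sets at the 5′ end, middle and 3′ end of the transcript on each array, on a log scale. Right, ratio of 3′ to 5′ signal of beta-actin and Gapdh on each array, on a linear scale. The beta-actin signals of the stressed arrays lie below those of the controls at all 3 positions. The beta-actin ratios are higher on the stressed arrays, while the Gapdh ratios of the groups overlap.

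Actg1, which encodes gamma-actin, the other nonmuscle actin, was the brightest of the members and did not pass the test. Its signal was 11961.4 and 10632.9 in stressed rats, against 9756.3 and 11291.5 in controls, so that the groups overlapped. The log2 fold change was 0.10 with an SE of 0.08 (adjusted p = 0.393), and it was -0.0018 without control replicate 1. The dim probe set of Actg1 had 84.2 and 112 in stressed rats, against 104 and 84.2 in controls (0.05, adjusted p = 0.867).

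Promoters were examined for 42 of the 46 genes, with the sequences and start sites of RefSeq on the rat build GRCr8. Actb, Actn4, Arpc1a and Gap43 had no promoter entry, so the promoter of Actb was not searched. In the 250 bases before the start, Actg1 had the only CArG box, the motif bound by serum response factor, among 44 promoters (2.27%, against 1.5% of 33469 rat promoters), and its first base was at -90. The GC box GGGCGG, on either strand, was in 36 of the 44 (81.8%), against 30.5% of all. The letters TATAAA, on either strand, were in 1, that of Sptan1 (2.27%), against 12.9% of all. A match is a description of the letters and no evidence of binding. The 120 bases before the start are shown for the gamma-actin gene with the CArG box, for Marcks, which fell on all its tested probe sets, and for Sptbn1, which had the steadiest rise. Their positions are chr10:106120952-106121071 for Actg1, chr20:42245883-42246002 for Marcks and chr14:108217837-108217956 for Sptbn1, all on the minus strand. They are given 5′ to 3′ along the gene, and capitals mark the CArG box and the GC boxes, which do not overlap. Marcks had none of these motifs in this stretch.
Actg1: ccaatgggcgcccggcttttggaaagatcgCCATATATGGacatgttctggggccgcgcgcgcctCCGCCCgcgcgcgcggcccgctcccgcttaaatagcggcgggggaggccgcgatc
Marcks: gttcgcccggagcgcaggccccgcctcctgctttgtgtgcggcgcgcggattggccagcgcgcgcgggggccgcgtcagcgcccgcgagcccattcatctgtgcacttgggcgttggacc
Sptbn1: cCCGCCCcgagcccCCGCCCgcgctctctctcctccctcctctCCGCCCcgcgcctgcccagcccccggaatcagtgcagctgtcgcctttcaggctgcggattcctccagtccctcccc

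The membrane-bound actin regulators of the MARCKS and GAP-43 group fell most uniformly, on 6 of 7 tested probe sets (85.7%), where 11.8% of all tested probe sets fell. Most of these probe sets were of Marcks, and with each gene counted at its brightest probe set 3 of 4 genes fell. Marcks, a protein kinase C substrate that holds phosphoinositides and actin at the membrane, fell on all 4 of its tested probe sets. On the brightest its signal was 1568.8 and 1699.8 in stressed rats, against 2290 and 2084.3 in controls (log2 fold change -0.42, SE 0.06, adjusted p = 0.00349). On the next it was 1083.2 and 1078.9 in stressed rats, against 1668.3 and 1675.1 in controls (-0.63, SE 0.05, adjusted p = 0.000144). The stressed arrays were lower than the controls on each of the 4, which read 1 gene and are not independent. The dimmest had 423 and 445.8 in stressed rats, against 863.4 and 854 in controls (-0.98, SE 0.06, adjusted p = 7.54e-05). The remaining one, whose ID marks several transcripts of the gene, had 583.7 and 650.9 in stressed rats, against 819.8 and 799 in controls (-0.39, SE 0.07, adjusted p = 0.00661, and 0.0539 without control replicate 1).

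Gap43, a growth cone protein of axons and presynaptic terminals, fell slightly, at 3524 and 3464.3 in stressed rats, against 4182.1 and 4330.8 in controls (log2 fold change -0.28, SE 0.04, adjusted p = 0.00385). Basp1, a growth cone protein of similar function, fell by 0.16 on the log2 scale (SE 0.04, adjusted p = 0.0361), a call lost without any 1 of the 4 arrays (adjusted p of 0.0891 to 0.174). Marcksl1, the smaller relative of Marcks, was the member of the group that did not pass. Its signal was 2210.5 and 2143.2 in stressed rats, against 2441.2 and 2306.3 in controls, lower on both stressed arrays but not past the test (log2 fold change -0.12, SE 0.05, adjusted p = 0.103).

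At the filament ends, 1 tested gene for each end fell. Tmod2, the neuronal tropomodulin that caps pointed ends, had 673.1 and 704.5 in stressed rats, against 1282.4 and 1281.2 in controls, on its brightest probe set (log2 fold change -0.90, SE 0.05, adjusted p = 5.44e-05). Its other probe sets did not pass. The next had 430.8 and 468.3 in stressed rats, against 487 and 441.3 in controls, and the groups overlapped (-0.05, adjusted p = 0.723), and the dimmest was at -0.33 (adjusted p = 0.204). Capza2, a subunit of the protein that caps barbed ends, had 1844.4 and 1845.7 in stressed rats, against 2880.1 and 2847.5 in controls (-0.63, SE 0.04, adjusted p = 9.73e-05). Its partners in the capping protein did not pass, with log2 fold changes of 0.06 for Capza1 (adjusted p = 0.531) and 0.14 for Capzb (adjusted p = 0.0865).

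**Figure D3:**
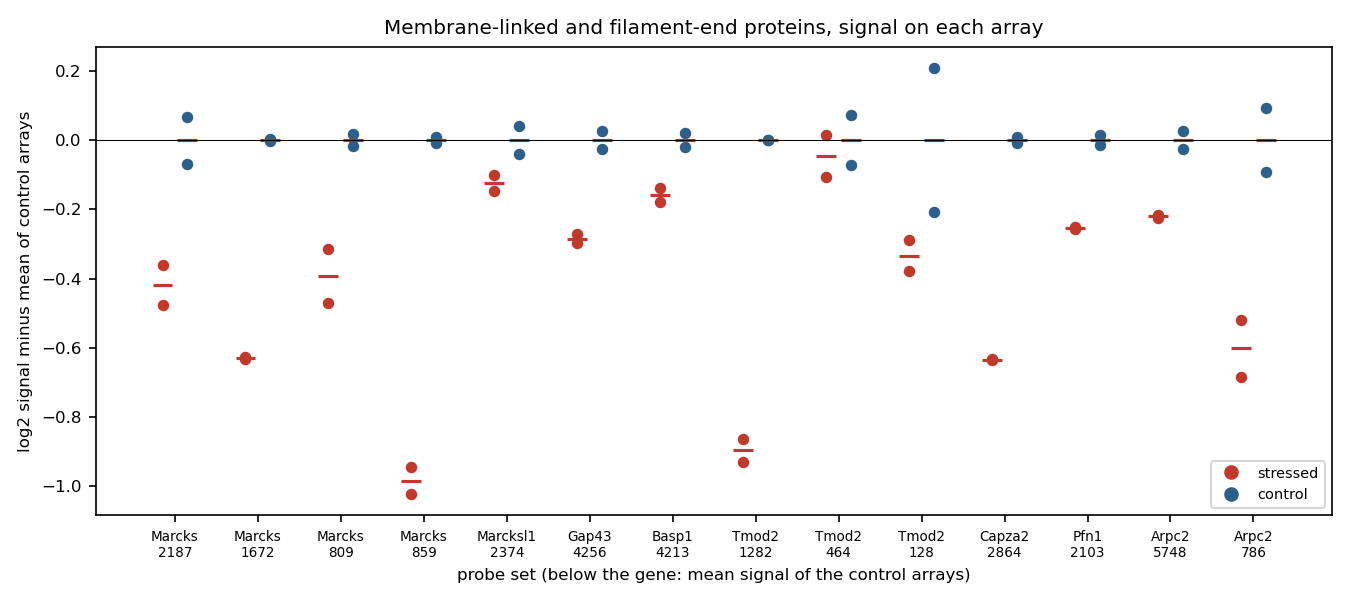
Log2 signal on each array less the mean of the control arrays, for tested probe sets of Marcks, Marcksl1, Gap43, Basp1, Tmod2, Capza2, Pfn1 and Arpc2, with short lines at group means and the mean control signal below each gene. The stressed arrays lie below the controls on all of these but the middle Tmod2 probe set, where the groups overlap.

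Of the Arp2/3 complex, Arpc2, a core subunit that binds the parent filament, fell on both of its probe sets. The brighter had 4948.2 and 4919.5 in stressed rats, against 5642.3 and 5852.8 in controls (log2 fold change -0.22, SE 0.04, adjusted p = 0.0106). This call was lost without stressed replicate 2 (adjusted p = 0.0565) or control replicate 2 (adjusted p = 0.0818). The dimmer had 547.6 and 488.5 in stressed rats, against 736.2 and 836.6 in controls (-0.60, SE 0.09, adjusted p = 0.00279). The other 6 tested probe sets of listed genes of the complex, of Actr2, Arpc1a, Arpc3 and Arpc5, had log2 fold changes of -0.08 to 0.10. None of them passed. Arpc4, a subunit outside the list, fell (-1.22, adjusted p = 3.27e-05) and is given below with other actin genes.

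Among the proteins that feed and sever filaments, Pfn1, the widespread profilin, fell. Its signal was 1766.4 and 1761.3 in stressed rats, against 2081.7 and 2124.4 in controls (log2 fold change -0.25, SE 0.04, adjusted p = 0.00622, and 0.0538 without control replicate 2). Pfn2, the neuronal profilin, had log2 fold changes of -0.12 on both probe sets (adjusted p = 0.069 and 0.426). Cfl2, a cofilin best known from muscle, had log2 fold changes of -0.12 and -0.02 and did not pass (adjusted p = 0.141 and 0.934).

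Ssh2, a slingshot phosphatase that activates cofilin, rose. It had 779.1 and 925.2 in stressed rats, against 605.4 and 636 in controls (log2 fold change 0.45, SE 0.09, adjusted p = 0.00887). The call was lost without control replicate 1 (adjusted p = 0.0675) or control replicate 2 (adjusted p = 0.0516). Of the LIM kinases, which inactivate cofilin, Limk1 had 82.6 and 47.7 in stressed rats, against 130.2 and 100.6 in controls. This probe set reached the signal needed for testing on the control arrays alone, so that the stressed values had to be lower. The difference did not pass (-0.87, SE 0.27, adjusted p = 0.0545). Limk2 did not pass (0.08, adjusted p = 0.499).

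Tropomyosins, which lie along filaments and govern the access of other proteins, fell on 4 of 11 probe sets (36.4%) and rose on none. Over all tested probe sets 11.8% fell and 12% rose. The 11 probe sets read only 2 genes, of which 1 fell at its brightest probe set. Tpm1 had 655.1 and 665.2 in stressed rats, against 902.9 and 896.1 in controls, on its probe set with the largest fall (log2 fold change -0.45, SE 0.05, adjusted p = 0.00141). A dimmer probe set of Tpm1 had 300.6 and 327.5 in stressed rats, against 418.7 and 402.6 in controls (-0.39, SE 0.08, adjusted p = 0.0144). That call was lost without stressed replicate 1 (adjusted p = 0.0573), control replicate 1 (0.0867) or control replicate 2 (0.0665). The other 3 Tpm1 probe sets had log2 fold changes of -0.24 to 0.01 and did not pass. Tpm3 had 1061.5 and 989.8 in stressed rats, against 1350.7 and 1363 in controls, on its second brightest probe set (-0.40, SE 0.05, adjusted p = 0.00212). Its brightest fell by 0.17 on the log2 scale (SE 0.05, adjusted p = 0.031), which no fit without 1 of the arrays called (adjusted p of 0.0807 to 0.155). The remaining 4 Tpm3 probe sets had log2 fold changes of -0.44 to -0.05 and did not pass. Of the 11 probe sets 6 carry ID endings for several transcripts or cross-hybridising probes, among them 1 of the fallen ones, the dimmer of Tpm1, and which tropomyosin transcripts they read was not tested.

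The alpha-actinins, which bundle filaments, did not move together. Actn2, known from striated muscle and dendritic spines, had 233.8 and 220.2 in stressed rats, against 178.3 and 163.9 in controls (log2 fold change 0.41, SE 0.11, adjusted p = 0.0337). Actn4, a nonmuscle isoform, had 310.1 and 319.9 in stressed rats, against 390.5 and 371.1 in controls (-0.27, SE 0.08, adjusted p = 0.0446). Both calls were lost without any 1 of the 4 arrays, with adjusted p of 0.069 to 0.152 for Actn2 and 0.0888 to 0.181 for Actn4. The 2 probe sets of Actn1, another nonmuscle isoform, had log2 fold changes of -0.12 and 0.12 and did not pass.

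Of the actin binders of spines and branches, Pdlim5, a PDZ and LIM domain protein that binds alpha-actinin, had 79.5 and 68.9 in stressed rats, against 145 and 152.6 in controls. The fold of -1.01 on the log2 scale (SE 0.15, adjusted p = 0.00363) was past the study's thresholds, but the probe set passed the signal filter through the control arrays alone, as did that of Limk1. Cttn, which encodes cortactin, a stabiliser of branches, Dbn1, which encodes the spine protein drebrin, and Synpo, which encodes the spine apparatus protein synaptopodin, had log2 fold changes of 0.09, 0.09 and 0.02. None of the 3 passed (adjusted p of 0.188 to 0.914).

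The spectrin skeleton differed in its counts from the other members. Of its 17 tested probe sets 5 rose and 5 fell (29.4% each), while of the other 56, 2 rose (3.57%) and 18 fell (32.1%), where over the whole array 12% rose and 11.8% fell. At the brightest probe set 4 of its 9 genes rose and 1 fell, with a median log2 fold change of 0.18. Of the other 32 genes 2 rose and 10 fell, with a median of -0.10, where 11.1% of all genes rose and 10.2% fell. The difference between these groups of genes was not tested.

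Both spectrins rose on their brightest probe sets. Sptan1, alpha-II spectrin, had 7744.4 and 7635 in stressed rats, against 6374.6 and 6864.5 in controls (log2 fold change 0.22, SE 0.05, adjusted p = 0.0191). Its only probe set has an ID ending that marks probes shared by several transcripts. The call was lost without stressed replicate 1 (adjusted p = 0.0895), stressed replicate 2 (0.0666) or control replicate 1 (0.116). Sptbn1, beta-II spectrin, the partner of Sptan1 in axons and dendrites, had 6549 and 6369.7 in stressed rats, against 4944.3 and 5161 in controls (0.35, SE 0.05, adjusted p = 0.00179). Its dimmer probe sets, at log2 fold changes of -0.11 and -0.11, did not pass (adjusted p = 0.221 and 0.69).

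The ankyrins, which tie spectrin to channels and adhesion proteins, moved both ways. Ank2, ankyrin-B, rose on its bright probe set, at 3981.2 and 4279.7 in stressed rats, against 3440.7 and 3132.6 in controls (log2 fold change 0.33, SE 0.06, adjusted p = 0.0075). It fell on its dim probe set, at 144.6 and 148.2 in stressed rats, against 223.4 and 230.6 in controls (-0.63, SE 0.11, adjusted p = 0.00619). Neither had an overlap between the groups, and both calls were lost without control replicate 2 (adjusted p = 0.0624 for the rise and 0.0548 for the fall). Ank3, ankyrin-G, the organiser of the axon initial segment, had 1016 and 832.4 in stressed rats, against 1169.6 and 1301.2 in controls (-0.42, SE 0.10, adjusted p = 0.0176). This call was lost without control replicate 1 (adjusted p = 0.0522) or control replicate 2 (0.127). Its dim probe set did not pass (-0.04, adjusted p = 0.854).

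The protein 4.1 family, which strengthens the contact between spectrin and actin, fell on 2 of 5 probe sets, both the dimmer ones of their genes. Over all tested probe sets 11.8% fell. At the brightest probe set 0 of the 3 genes of the family fell. Epb41l3, a 4.1 protein of neurons and glia, had 315.8 and 287 in stressed rats, against 712 and 770.8 in controls (log2 fold change -1.30, SE 0.08, adjusted p = 6.98e-05). This was the largest fall of the 73 probe sets, 0.406-fold. Its brighter probe set had 910.5 and 905.7 in stressed rats, against 1028.7 and 984.7 in controls (-0.15, SE 0.05, adjusted p = 0.0788). Epb41l1, the neuronal 4.1N, had 417.9 and 418.6 in stressed rats, against 606.2 and 610 in controls (-0.54, SE 0.06, adjusted p = 0.0013). Its brighter probe set did not pass (0.06, adjusted p = 0.43). Both falling probe sets have an ID ending that marks probes shared by several transcripts. Epb41l2 did not pass (0.18, adjusted p = 0.0531).

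The adducins, which cap filaments and recruit spectrin to them, also split by probe set. Add1 rose on its dim probe set, at 166.6 and 185.8 in stressed rats, against 110.7 and 106.6 in controls (log2 fold change 0.70, SE 0.13, adjusted p = 0.00877, and 0.0586 without control replicate 2). Its bright probe set had 2838.3 and 2866.5 in stressed rats, against 2759.5 and 2737.6 in controls, and did not pass (0.05, SE 0.04, adjusted p = 0.394). Add3 rose on its bright probe set, at 2400.3 and 2451.8 in stressed rats, against 2124.5 and 2117.9 in controls (0.19, SE 0.04, adjusted p = 0.0164). That rise was lost without stressed replicate 2 (adjusted p = 0.0798), control replicate 1 (0.0767) or control replicate 2 (0.0887). The dim probe set of Add3 fell, at 433.7 and 470.8 in stressed rats, against 740.5 and 840.7 in controls (-0.80, SE 0.08, adjusted p = 0.000618). Add2 had 1 probe set, at signals of 1.9 to 3.8, and was not tested.

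**Figure D4:**
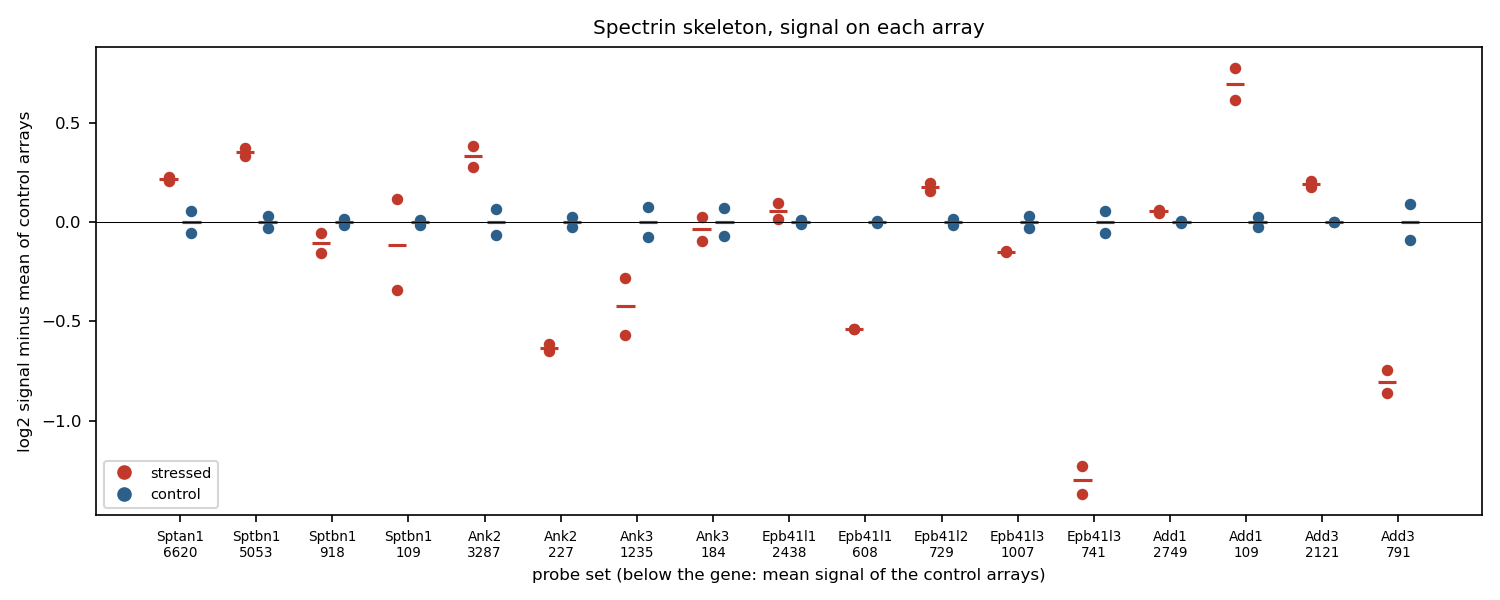
Log2 signal on each array less the mean of the control arrays for the 17 tested probe sets of spectrins, ankyrins, protein 4.1 and adducins, with short lines at group means and the mean control signal below each gene. The bright probe sets of Sptan1, Sptbn1, Ank2 and Add3 lie above the controls in stressed rats, and the dim ones of Ank2, Epb41l1, Epb41l3 and Add3 lie below. The bright probe set of Ank3 lies below the controls, and the dim one of Add1 lies above.

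Ezrin, radixin and moesin link membrane proteins to actin. Ezr and Msn did not pass, with log2 fold changes of 0.14 (adjusted p = 0.125) and 0.21 (adjusted p = 0.189). Rdx, which encodes radixin, fell on 1 of 4 probe sets, at 324.8 and 317.6 in stressed rats, against 509.4 and 488.1 in controls (-0.63, SE 0.07, adjusted p = 0.0012). Its brightest had 576.3 and 541.8 in stressed rats, against 514.4 and 508.5 in controls, higher on both stressed arrays but not past the test (0.13, SE 0.07, adjusted p = 0.204). The other Rdx probe sets had log2 fold changes of 0.31 and -0.15 and did not pass.

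Probe sets of 1 gene often differed. Of 18 genes with more than 1 tested probe set, Add3 and Ank2 (11.1%) had calls in opposite directions, against 96 of 1871 genes (5.13%) on the whole array. All probe sets passed in the same direction for Arpc2 and Marcks (11.1%), against 106 genes (5.67%). In 13 of the 18 genes (72.2%) the dimmer probe sets had a lower mean log2 fold change than the brightest, against 1060 of the 1871 (56.7%). The median spread of log2 fold changes within a gene was 0.46 over the 18 genes and 0.26 over all 1871. These values describe the probe sets, and which transcripts they read was not tested.

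**Figure D5:**
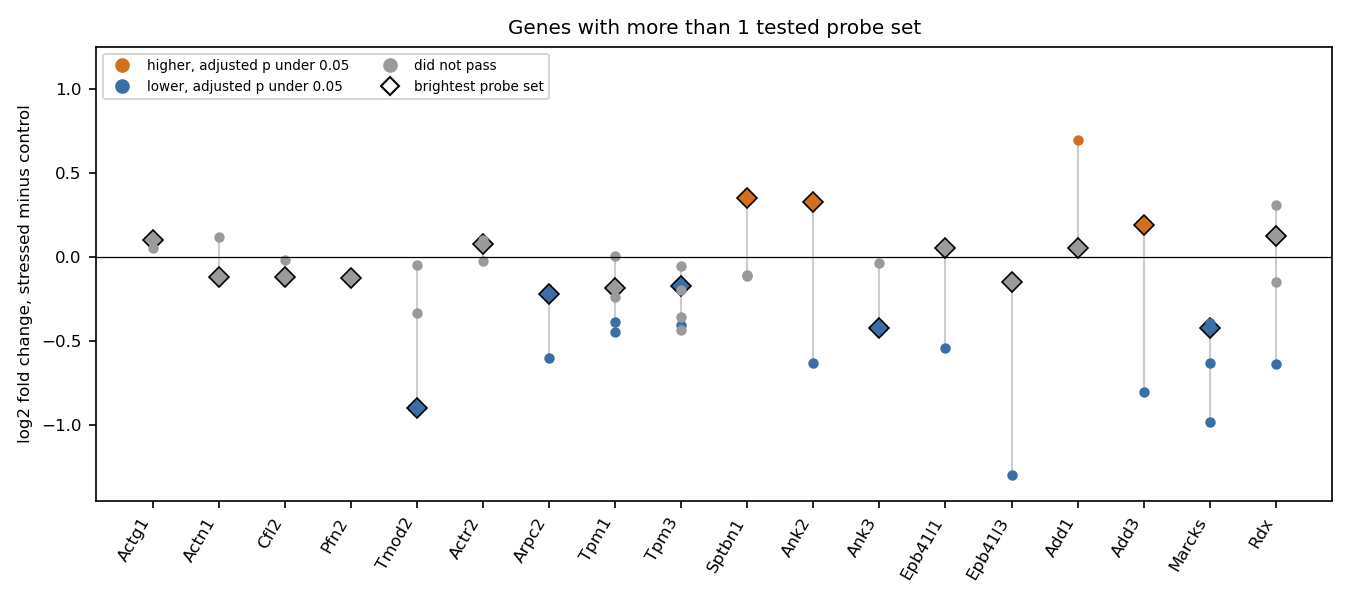
Log2 fold change, stressed minus control, of every tested probe set of the 18 genes with more than 1, with diamonds for the brightest and colours for calls at adjusted p under 0.05. Ank2 and Add3 have calls in both directions, and all probe sets of Marcks and Arpc2 lie below 0.

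Other actin genes, taken from lists of regulators, myosins, crosslinkers and further spectrins, had about as many rises as falls. Of 65 tested at the brightest probe set, 10 rose (15.4%), 9 fell (13.8%) and 46 did not pass, with a median log2 fold change of 0.02. These shares were near those of all genes, 11.1% and 10.2%. Pak3, a kinase downstream of Rac and Cdc42, had 770.4 and 750.5 in stressed rats, against 1728 and 1735.9 in controls (-1.19, adjusted p = 1.63e-05). Arpc4, a further Arp2/3 subunit outside the 46 genes, had 551.4 and 498.5 in stressed rats, against 1231.2 and 1212 in controls (-1.22, adjusted p = 3.27e-05). Their groups were well apart, with the stressed arrays lower. The small GTPases Rhoa and Cdc42 fell by 0.59 and 0.33 on the log2 scale, and the myosin Myo5a, which carries cargo into spines, fell by 0.81, while the myosin Myo6 rose by 0.58. Abi1 and Abi2, parts of the WAVE complex that activates Arp2/3, had log2 fold changes of -0.23 and 0.43, and both passed. The erythroid and brain spectrin Sptb rose by 0.45 and Sptbn4, beta-IV spectrin of the axon initial segment, by 0.29, as did Zyx, zyxin of focal adhesions, by 0.33, and Palld, the crosslinker palladin, fell by 0.52.

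Several kinds of hippocampal cell express these genes, and in tissue RNA fewer cells of a type and less RNA per cell cannot be told apart. Each marker was tested at its brightest probe set in the same fit, where 11.1% of all genes were higher and 10.2% lower. The sums below are of linear signals, so that the brightest markers weigh most. Neuron markers were present, with 8 of 8 tested, 2 higher and 1 lower at adjusted p under 0.05, and a summed signal of 23208 to 23445 in stressed rats, against 21972 to 22067 in controls. The higher ones were Camk2a and Snap25, and the lower one was Rbfox3. Snap25, the brightest of the 8, had 11119 and 10678.9 in stressed rats, against 9502.3 and 9992.5 in controls. Choroid plexus markers were higher on 8 of 12 and lower on none, with sums of 20117 to 21442 in stressed rats, against 15438 to 17229 in controls, and Kcnj13, Kl and Steap1 were below the signal minimum. Of these 8, Cldn2, Kcne2 and Aqp1 reached the minimum on the stressed arrays alone, so that they had to differ. Ttr, the brightest of the 12, did not pass, at 12992.4 and 11938.5 in stressed rats, against 9449.9 and 11337.7 in controls. Endothelial and mural markers were higher on 6 and lower on 2 of 16, with sums of 6220 to 6239 in stressed rats, against 5453 to 5590 in controls, and Pecam1 was below the minimum. Cspg4 and Pdgfrb among the higher ones reached the minimum on the stressed arrays alone, and Egfl7 among the lower ones on the control arrays alone. Meningeal and fibroblast markers were lower on 5 and higher on 1 of 8, with sums of 2576 to 2606 in stressed rats, against 3028 to 3056 in controls, and Slc6a13 was below the minimum. Col3a1 and Col1a1 among the lower ones reached the minimum on the control arrays alone. Microglia markers were lower on 2 and higher on 1 of 8, with sums of 3759 to 3787 in stressed rats, against 4000 to 4011 in controls, and Cd68, Cx3cr1 and Itgam were below the minimum. Oligodendrocyte markers were lower on 2 and higher on 1 of 9, with sums of 38016 to 38689 in stressed rats, against 38817 to 41288 in controls, and Olig2 was below the minimum. Astrocyte markers were higher on 1 of 9 and lower on none, with sums of 54995 to 56418 in stressed rats, against 49378 to 51180 in controls. The part of these differences in the results for actin and spectrin genes was not tested.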

How the data were processed

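Total hippocampal RNA, 1 pool of 3 rats per array, was hybridized by the authors to 4 Affymetrix rat genome arrays, 2 of stressed rats and 2 of nonstressed controls. The signal intensities, deposited on a linear scale, came from GCOS 1.4 with a target of 300 set by the authors, and were used without further normalization. No detection calls or probe sequences were used. Signals of 0 were set to 0.1 before log2, and the 57 Affymetrix control probe sets were not tested. Gene names came from the platform annotation, which gives 1 gene for 20826 probe sets, several for 436 and none for 9780. Groups were compared in R 4.3.3 by limma 3.58.1, moderated with an intensity trend and without a replicate block (7.73 degrees of freedom). Tables and figures were made with python 3.11.15. The test was tested on simulated data. The members and lists were chosen with earlier results of these data known. Genes given with the values of all arrays were actin, the 7 rises and the 10 largest falls past the adjusted p, those past the study's thresholds and those with opposite calls, and some others were added after their values were seen. The alternatives were quantile normalization, median centring, other filters, an offset of 50, a floor of 50, no intensity trend, the methods' t-test, replicate blocks, each array left out, the mean of a gene's probe sets and 1.5-fold. A crossed block and the removal of probe sets with shared or cross-hybridising probes were added after seeing the data. The number of arrays limits the precision.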

Additional observations from a re-analysis of the deposited data

How the results depend on the processing

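Of the 7 rises and 23 falls, quantile normalization gave 7 and 24, median centring 7 and 23, and an offset of 50 gave 7 and 24. Without an intensity trend 3 probe sets rose, and 2 genes rose and 5 fell at their brightest probe set. The methods' t-test, adjusted by Benjamini-Hochberg, called 0 rises and 1 fall, and 0 genes either way, against 6 rises and 25 falls at its unadjusted p under 0.05, 5 and 13 of them at the brightest probe set of a gene. Past the study's thresholds, 1 probe set was higher with no filter on dim probe sets, and 1 was lower with a signal of at least 200 on 2 arrays, with an offset of 50, or without probe sets of shared or cross-hybridising probes. At 1.5-fold, 1 was higher and 11 lower. For the alternatives of this section the shares over all tested probe sets are not given. Their counts show only how the member counts moved. The median log2 fold change of the genes was 0.0107 with the signal of at least 200, -0.0793 with the mean of a gene's probe sets and -0.0472 without shared probes. With 1 array left out, 2 to 5 probe sets rose and 15 to 20 fell, 2 to 4 genes rose and 5 to 9 fell, and the median over genes was -0.0530 to 0.0009. Actg1, which did not pass, ranged from -0.0018 without control replicate 1 to 0.2091 without control replicate 2. Of the 30 calls, 1, a Marcks fall, was kept under all alternatives that were run.

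The replicate numbers were not stated to pair arrays, and the deviations of equally numbered arrays correlated at -0.11. With the number as a block, 4 probe sets rose and 20 fell, and 3 genes rose and 8 fell. With the crossed pairing, 11 probe sets rose and 26 fell, and 10 genes rose and 13 fell.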

Other observations

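Of the 100 probe sets of actin and spectrin genes, 27 did not reach a signal of 100 on 2 arrays and were not tested, and their highest signal was 97.9. Among them, 9 were higher and 4 lower on both stressed arrays than on both control arrays. The share over all untested probe sets is not given, so these counts are no result about the members. Marcks had 2 such probe sets, which went opposite ways. One had 32.7 and 23 in stressed rats, against 72.6 and 84.7 in controls, and the other had 7.4 and 2.6 in stressed rats, against 1.1 and 1 in controls. The other 3 lower ones were 2 of Tpm3 and 1 of Rdx, and the higher ones included 2 each of Tpm3 and Synpo. They are given for their direction alone, after their values were seen, and none was tested.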
